A study of Mus musculus with 5 samples.

Results

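The genes described here are clock outputs of mouse Kupffer cells, the macrophages that line the liver sinusoids. They comprise the 3 activators of the PAR-bZIP class (Dbp, Tef and Hlf), the repressor Nfil3, and 3 further genes tied to the clock (Ciart, Rora and Usp2). Members were picked by symbol, and 7 of the 46983 genes in the count table matched. They were selected on earlier results of the same genotype contrast. Their differences are therefore a description, given without a p-value, and nothing is supported by them.

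The libraries held poly-A RNA of Kupffer cells from livers heterozygous for Id3 (Id3+/-, 3 libraries, replicates 1 to 3) or homozygous for its loss (Id3-/-, called knockout here, 2 libraries, replicates 2 and 3). Id3 encodes a helix-loop-helix protein without a DNA-binding region, which pairs with E proteins and keeps them from DNA. The heterozygous libraries served as controls, so every library came from cells with at least 1 disrupted Id3 copy and a wild-type group was not analysed here. The sources used here do not give the strain, age, sex, hour of collection, type of Id3 allele, any sort of the cells, or whether the libraries came from separate animals. The names of all 5 count columns carry the tag 3w, which the labels do not explain. The p-values below thus measure only the spread between these libraries, which may be technical.

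Circadian clocks run on a transcriptional loop that most cells carry, macrophages and hepatocytes included. CLOCK and BMAL1 (gene Arntl) bind E-boxes and switch on Per, Cry, Nr1d1 and Nr1d2, whose products repress them in turn, and among the outputs they drive are Dbp, Tef and Hlf. These 3 proteins are basic leucine zipper factors with a proline- and acidic amino acid-rich (PAR) region and activate genes through D-boxes, while NFIL3, also called E4BP4, binds the same element and represses. In the liver PAR-bZIP factors are known as drivers of the daily rhythm of detoxification genes.

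E-box letters stood upstream of some of these genes, and the 2 stretches below are shown because they carry the core clock E-box CACGTG without lying in an annotated exon. Both come from RefSeq promoters on GRCm38.p6, run 5′ to 3′ on the gene's strand from 160 to 31 bases before the start site, and have every match to CANNTG, the general E-box, in capitals.
Ciart: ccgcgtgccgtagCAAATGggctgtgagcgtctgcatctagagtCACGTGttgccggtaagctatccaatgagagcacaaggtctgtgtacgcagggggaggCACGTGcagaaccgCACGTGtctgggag
Tef: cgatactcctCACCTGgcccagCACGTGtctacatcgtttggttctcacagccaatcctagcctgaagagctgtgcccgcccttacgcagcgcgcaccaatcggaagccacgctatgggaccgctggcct
The Ciart stretch lies at chr3:95882259-95882388 (minus strand) and the Tef stretch, before the downstream of its 2 RefSeq starts, at chr15:81811254-81811383 (plus strand). In the 250 bases before each start, Ciart had 3 copies of CACGTG, beginning 116, 58 and 44 bases before the start. Tef had 1 copy before each of its starts, 127 and 138 bases away. The other 5 members had none there, and of all 32851 promoter windows 6.02% held at least 1 copy and 0.0609% held 3 or more. CANNTG, searched on both strands and including every CACGTG, was found for 5 of the 7 members and in 66.2% of all windows. Neither D-box spelling searched, TTATGTAA (0.819% of all windows) nor TTATGCAA (0.694%), was found for any member. The motif AGGTCA of ROR and REV-ERB receptors was found for Nfil3 alone, 12 bases before its start, and in 14% of all windows. A letter match is a description of the window, and elements in introns or farther upstream were not searched.

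Depth was even, at 74.8M to 80.9M counts in genes per library. Reads assigned to no gene moved with genotype, at 47%, 47.5% and 48.6% of all counts in heterozygous replicates 1 to 3 and 40% and 42.8% in knockout replicates 2 and 3. Among them were multiply aligned reads, at 36.2% to 39.4% against 31.3% and 32.8%. The part of this difference in the values below was not tested. Id3 stood at 221 to 256 CPM (counts scaled to library size, with TMM factors) in heterozygous and 1.01 and 1.42 CPM in the knockout libraries, which matched the genotype labels. Kupffer cell markers such as Clec4f and Cd5l were abundant everywhere, with 60881 to 73211 CPM summed over 12 genes, but 3 of the 12 were called higher and 1 lower. The scavenger receptor genes Marco (1.06 ± 0.12 on the log2 scale) and Cd163 (-1.05 ± 0.11) were the most changed, C1qb (0.36 ± 0.09) and C1qc (0.38 ± 0.09) were the other 2, and Clec4f and Cd5l were not called. Markers of hepatocytes differed with genotype, but not all alike. Their 18 genes took 2.74% to 3.37% of the counts in the heterozygous libraries but 0.577% and 1.37% in knockout replicates 2 and 3. Of these genes 14 were called lower. The other 4 were not called: Apoa1 (-0.86 ± 0.37 on the log2 scale), Apoa2 (-0.08 ± 0.38), Ttr (-0.1 ± 0.47) and Hamp (1.93 ± 0.76). Neutrophil markers summed to 74.6 to 80.2 CPM in heterozygous and to 346 and 135 CPM in the knockout libraries (replicates 2 and 3), and 6 of 9 tested were called higher. Csf3r alone was at 63 to 71.5 CPM in heterozygous and at 130 and 102 CPM in the knockout libraries. Ngp, 1 of the 6, rested on 1 library, with 78.3 and 0.465 CPM in knockout replicates 2 and 3. S100a9 was higher in both, at 32.8 and 12.8 CPM beside at most 0.439 CPM in heterozygous libraries. Summed stromal and stellate markers went from 115 to 123 CPM down to 69.1 and 75.9 CPM, and of 9 tested 4 were called lower and 1 higher. Of the other marker lists, monocytes had 3 of 9 tested genes higher (714 to 933 against 1184 and 1151 CPM summed), T and NK cells 2 of 11 higher (41.1 to 75.7 against 174 and 91.9 CPM) and sinusoidal endothelium 4 of 10 lower (1112 to 1327 against 1096 and 1017 CPM). The monocyte genes called higher included Nr4a1, with means of 34.6 ± 6.69 and 182 ± 29.3 CPM (SD). Nr4a1 is also on the stimulus-induced list below. No marker of B cells (208 to 306 against 502 and 278 CPM), cholangiocytes (5.51 to 11.6 against 3.98 and 43.6 CPM) or erythroid cells (2837 to 3362 against 2990 and 2347 CPM) passed. Because these are bulk samples, fewer cells of a type and less RNA per cell cannot be told apart. The part of such admixed RNA in the values below was not tested. In all, 2698 of the 16436 genes tested (16.4%) passed an adjusted p of 0.05, 6.41% called higher and 10.0% called lower in the knockout libraries (edgeR quasi-likelihood test, Benjamini-Hochberg over all genes tested). With upper-quartile scaling the split was 1443 higher and 1499 lower, beside 1054 and 1644. Groups did not overlap in 51.5% of genes.

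Among the clock outputs, Dbp and Tef were higher in both knockout libraries and Usp2 was lower. All 7 members passed the filter on low counts. Of these, 2 were called higher and 1 lower, and in 5 the groups did not overlap. With members selected on this contrast, nothing is read from these counts beside the 16.4%, 6.41%, 10.0% and 51.5% of all genes. With 1 library left out in turn, log2 fold changes ran from 1.97 to 2.25 (Dbp), 0.89 to 1.13 (Tef) and -0.58 to -0.53 (Usp2). Such fits reuse the libraries on which the members were selected and are a description only. A further fit held a covariate for hepatocyte RNA (mean log2 CPM of its markers), on 2 residual degrees of freedom. In it none of the 3 was called, at log2 fold changes of 2.12 (Dbp), 0.66 (Tef) and -0.62 (Usp2). The covariate ran close to genotype, at 9.28, 9.43 and 9.4 in heterozygous and 7.23 and 8.35 in the knockout libraries. Covariate and genotype can thus hardly be told apart. Values from this fit, here and below, do not measure what remains without hepatocyte RNA.

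**Figure D1:**
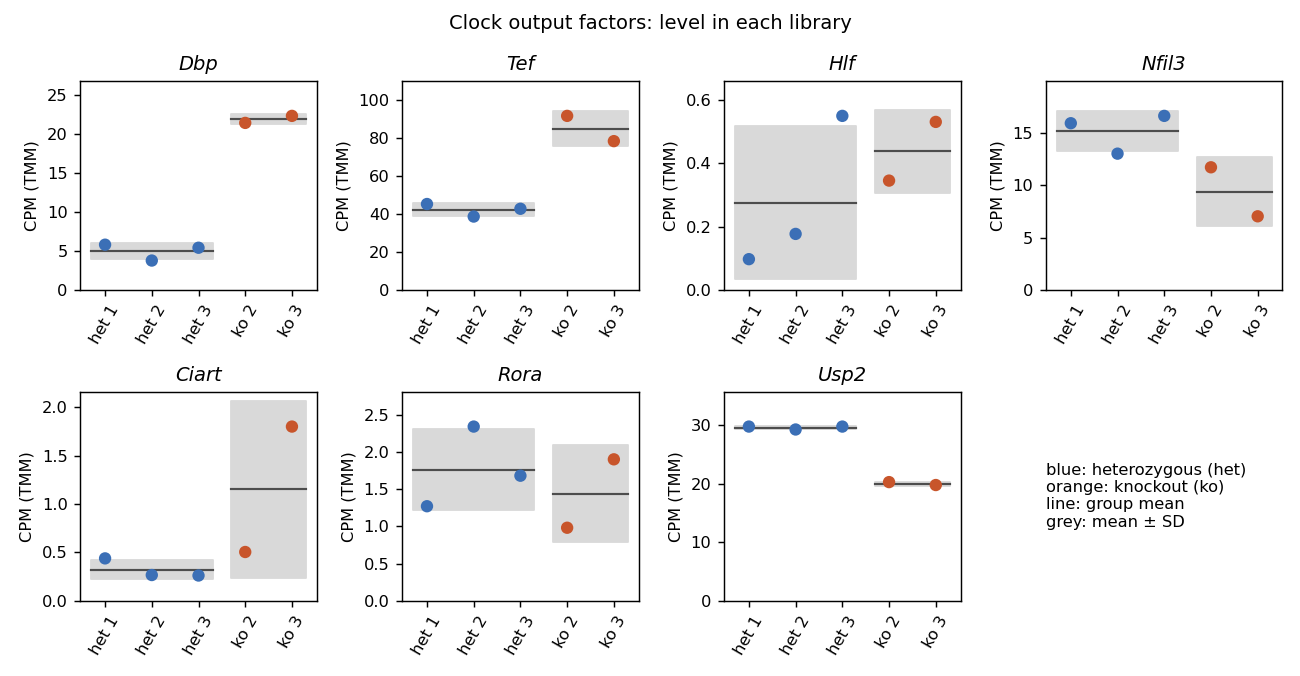
Level of each clock output factor in CPM (TMM-scaled, axes from 0) in the 3 heterozygous (blue) and 2 knockout (orange) libraries, with group means (lines) and SD (grey). Dbp and Tef sit higher and Usp2 lower in both knockout libraries, while Hlf and Rora overlap between groups.

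Dbp, the D-box activator whose transcript swings widely over the day in many tissues, stood at 5.81, 3.78 and 5.42 CPM in heterozygous replicates 1 to 3 and at 21.4 and 22.3 CPM in knockout replicates 2 and 3. Both knockout libraries were far above all controls and close to each other. The means were 5.0 ± 1.08 CPM (SD, n = 3) and 21.9 ± 0.632 CPM (SD, n = 2), for a log2 change of 2.13 ± 0.22 (SE) or 4.37-fold. It ran from 1.97 to 2.25 as each library was left out in turn. In GENCODE M21, 18% of the exon length of Dbp (539 of 2993 bases) overlaps Sphk2 on the opposite strand. Reads there may be dropped as ambiguous. Since no source used here gives the strand setting of the counting, reads of the 2 genes within this stretch cannot be told apart. The rest of the Dbp exon length overlaps no other gene. Sphk2, a sphingosine kinase gene, was itself at 79.3 ± 1.67 and 108 ± 3.90 CPM, a far smaller log2 fold change of 0.44 ± 0.08.

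Tef, thyrotroph embryonic factor, is the second activator. It stood at 45.3, 38.7 and 42.8 CPM in heterozygous and at 91.7 and 78.4 CPM in the knockout libraries. The lower knockout value was still well above the highest control. Means were 42.3 ± 3.31 (SD, n = 3) and 85.0 ± 9.39 CPM (SD, n = 2), for a log2 change of 1.01 ± 0.12 (SE), and 0.89 to 1.13 with 1 library left out.

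Hlf, the third activator, known from liver, brain and blood stem cells, was close to the limit of detection. It had 8, 14 and 40 counts (0.0974, 0.177 and 0.549 CPM) in heterozygous and 26 and 41 counts (0.345 and 0.530 CPM) in the knockout libraries. The highest value belonged to a control, heterozygous replicate 3, and the groups overlapped. The log2 fold change of 0.67 ± 0.84 (SE) moved to 1.66 without that library and to 0.27 without heterozygous replicate 1. No difference was detectable at this depth.

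Nfil3, the repressor at D-boxes, which is also needed for natural killer and innate lymphoid cell development, showed values opposite in sign to those of Dbp and Tef. It was at 15.9, 13 and 16.6 CPM in heterozygous and at 11.7 and 7.03 CPM in knockout replicates 2 and 3. Both knockout libraries were below all controls, but replicate 2 only narrowly. The log2 fold change was -0.70 ± 0.26 (SE), from means of 15.2 ± 1.93 (SD, n = 3) and 9.35 ± 3.28 CPM (SD, n = 2), and it was not called. Its size hung on knockout replicate 3: it was -0.37 without that library and -1.11 without knockout replicate 2. With the hepatocyte covariate it was -1.79.

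Levels of different genes were set side by side after division by exon length, here CPM per kilobase of the gene's merged GENCODE M21 exons. That length was 7867 bases for Tef, 2993 for Dbp and 2026 for Nfil3. The isoforms expressed here were not determined, so the order of genes depends on this choice of length. In the heterozygous cells the order of mean levels was Nfil3 (7.49), Usp2 (6.15), Tef (5.37), Dbp (1.67), Ciart (0.142), Rora (0.135) and Hlf (0.0411). Ciart and Rora overlapped in that order, and no other neighbours did. In the knockout cells it was Tef (10.8), Dbp (7.31), Nfil3 (4.62), Usp2 (4.17), Ciart (0.509), Rora (0.110) and Hlf (0.0655). There Nfil3 overlapped Usp2 and Rora overlapped Hlf. On this length scale Nfil3 led the order in the control cells and stood below Tef and Dbp in the knockout cells.

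Summing Dbp, Tef and Hlf per kilobase put the activators beside their repressor. The sum was 7.71, 6.21 and 7.33 CPM per kilobase in heterozygous and 18.9 and 17.5 in the knockout libraries. Divided by Nfil3 it gave 0.981, 0.969 and 0.895 in heterozygous replicates 1 to 3. Activator and repressor transcripts were thus near parity in each control on this length scale, which other isoform lengths would shift. In knockout replicates 2 and 3 the ratio was 3.28 and 5.05. Tef made up 74.2% to 79.3% of the sum in the control cells and 61.8% and 56.9% in the knockout cells, with Dbp taking nearly all the rest and Hlf at most 1.12%.

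**Figure D2:**
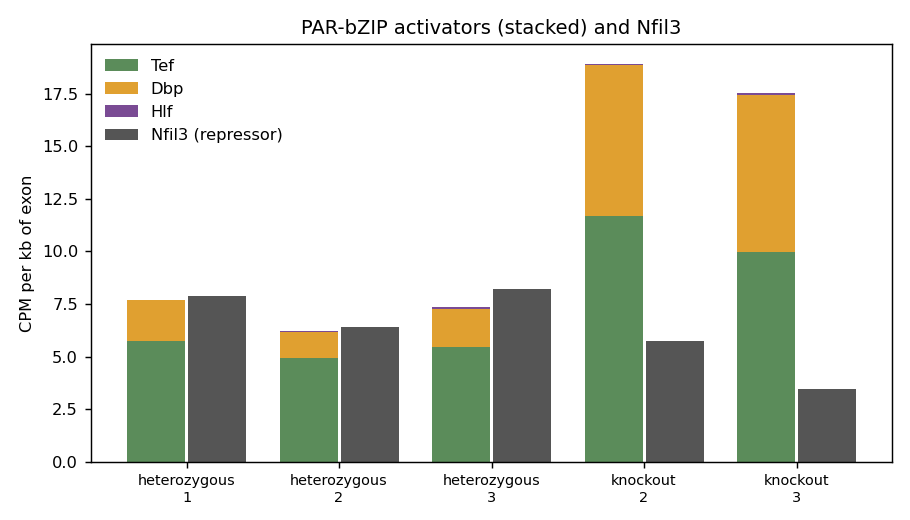
CPM per kilobase of exon in each library for the activators Tef, Dbp and Hlf (stacked bars, Hlf barely visible) and for the repressor Nfil3 (grey bars). The stacked bar is about as tall as the Nfil3 bar in the 3 heterozygous libraries and 3.28 and 5.05 times as tall in knockout replicates 2 and 3.

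Ciart, also known as CHRONO, is a repressor of CLOCK and BMAL1 and had the promoter with 3 copies of CACGTG. Counts were 36, 21 and 19 in the heterozygous libraries (0.438, 0.266 and 0.261 CPM) and 38 and 139 in knockout replicates 2 and 3 (0.504 and 1.80 CPM). Knockout replicate 3 stood apart, whereas replicate 2 lay just above the highest control. The log2 fold change of 1.83 ± 0.66 (SE) was not called and fell to 0.65 without knockout replicate 3. It was 2.47 without knockout replicate 2 and 3.91 with the hepatocyte covariate.

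Rora encodes a nuclear receptor that activates Arntl through ROR elements and is also used by innate lymphoid cells. It stood at 1.27, 2.34 and 1.68 CPM in heterozygous and at 0.981 and 1.90 CPM in the knockout libraries, and the groups overlapped. Its log2 fold change of -0.29 ± 0.45 (SE) had no stable sign: it was 0.11 without knockout replicate 2, 0.46 with offsets for transcript length and GC content, and 1.11 with the hepatocyte covariate. Innate lymphoid markers, 8 genes, summed to 9.12, 9.1 and 5 CPM in heterozygous and to 1.96 and 3.41 CPM in the knockout libraries. Of 4 tested (median -1.57), 0 were called higher and 1 lower, beside 10.0% of all genes called lower. Il17rb was at 1.99 ± 0.718 and 0.643 ± 0.497 CPM (SD, n = 3 and 2) and was not called. Gata3 had 69, 0 and 5 counts in heterozygous and 50 and 6 in knockout libraries. Il7r had at most 2 counts in any library.

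Usp2 encodes a deubiquitinase and is rhythmic in many tissues. Values of 29.8, 29.3 and 29.8 CPM in heterozygous and 20.3 and 19.8 CPM in the knockout libraries made it the least variable member within groups. The means of 29.7 ± 0.296 (SD, n = 3) and 20.1 ± 0.380 CPM (SD, n = 2) differed by a log2 change of -0.56 ± 0.11 (SE), and -0.58 to -0.53 with any 1 library left out. Without heterozygous replicate 1, heterozygous replicate 2 or either knockout library it was no longer called, and the value hardly moved.

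**Figure D3:**
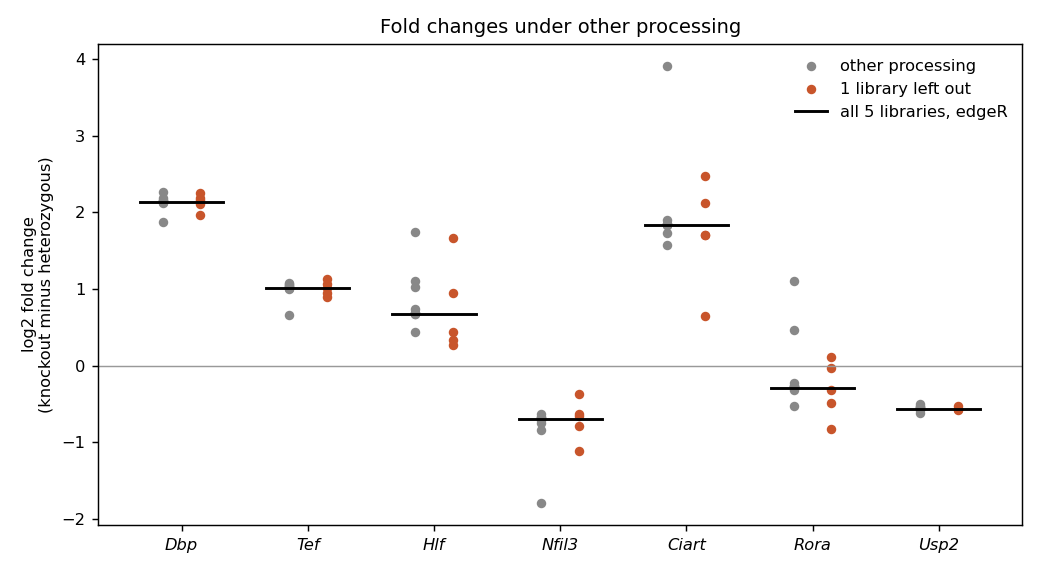
Log2 fold change (knockout minus heterozygous) of each member with all 5 libraries in edgeR (black line), under other processing of all libraries (grey) and with 1 library left out (orange). Dbp, Tef and Usp2 stay on 1 side of 0 within narrow ranges, Ciart and Hlf spread widely above 0, Nfil3 below it, and Rora lies on both sides.

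The core loop was compared in the same fit. Of 16 core clock genes 14 were tested, of which 2 rose, 3 fell and 9 were not called, with a median log2 fold change of -0.17 beside -0.02 over all genes tested. That is 35.7% called, beside 16.4% of all genes. This list and those below were chosen with earlier results of these data known, so their shares are descriptions. The count was 2 without heterozygous replicate 1 or 2. Over all genes 463 of 15972 passed without heterozygous replicate 1 and 335 of 16022 without heterozygous replicate 2. Counts of the lists below from these 2 fits stand beside those shares. Arntl2 and Rorb were too low to test, at no more than 0.0887 CPM in any library.

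Nr1d1, which encodes REV-ERB alpha, was at 10.5, 9.28 and 6.36 CPM in heterozygous and 50.8 and 58.6 CPM in the knockout libraries, or 2.65 ± 0.22 on the log2 scale (adjusted p = 0.00438 in edgeR). Its paralog Nr1d2 varied within the controls, with 8.22, 5.21 and 2.09 CPM against 5.36 and 3.72 CPM, and was not called. Bhlhe40, an E-box repressor also called DEC1, went from 32.7 ± 2.94 (SD, n = 3) to 68.7 ± 3.67 CPM (SD, n = 2), or 1.07 ± 0.12 on the log2 scale (adjusted p = 0.00766 in edgeR). Both calls were kept in each of the 5 fits without 1 library. Bhlhe41 was low, at 0.412 to 0.520 and 0.569 to 0.756 CPM.

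The period and cryptochrome genes split. Per3 was at 2.08, 0.912 and 0.686 CPM in heterozygous and 3.28 and 5.49 CPM in the knockout libraries, without overlap. Its log2 fold change of 1.83 ± 0.53 did not pass (edgeR adjusted p = 0.065), but it passed in DESeq2 (0.00612) and limma-voom (0.0384). Per1 (-0.16 ± 0.11) and Per2 (-0.28 ± 0.26) did not pass either. Cry1 fell from 19.8 ± 1.27 (SD, n = 3) to 8.35 ± 1.44 CPM (SD, n = 2), or -1.25 ± 0.17 on the log2 scale (adjusted p = 0.0119 in edgeR), while Cry2 was at 0.35 ± 0.17 and not called. Cry1 no longer passed once heterozygous replicate 1 (edgeR adjusted p = 0.0511) or 2 (0.057) was left out.

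Among activators of the loop, Arntl fell. Arntl was at 30.4, 32.7 and 25.8 CPM in heterozygous and 12.2 and 16.3 CPM in the knockout libraries, or -1.05 ± 0.19 on the log2 scale (adjusted p = 0.0195 in edgeR). Clock (-0.76 ± 0.42, and 0.05 with offsets for length and GC content) and Npas2, a stand-in for Clock (-2.10 ± 0.83), did not pass, and Npas2 passed in DESeq2 (adjusted p = 0.0373) and without knockout replicate 3 (edgeR adjusted p = 0.0151). With the hepatocyte covariate the value of Npas2 turned to 1.40 and that of Arntl was -0.50, no longer called. Arntl also no longer passed once heterozygous replicate 1, heterozygous replicate 2 or knockout replicate 2 was left out. Timeless had means of 16.3 ± 2.71 and 16.4 ± 0.391 CPM (SD, n = 3 and 2).

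**Figure D4:**
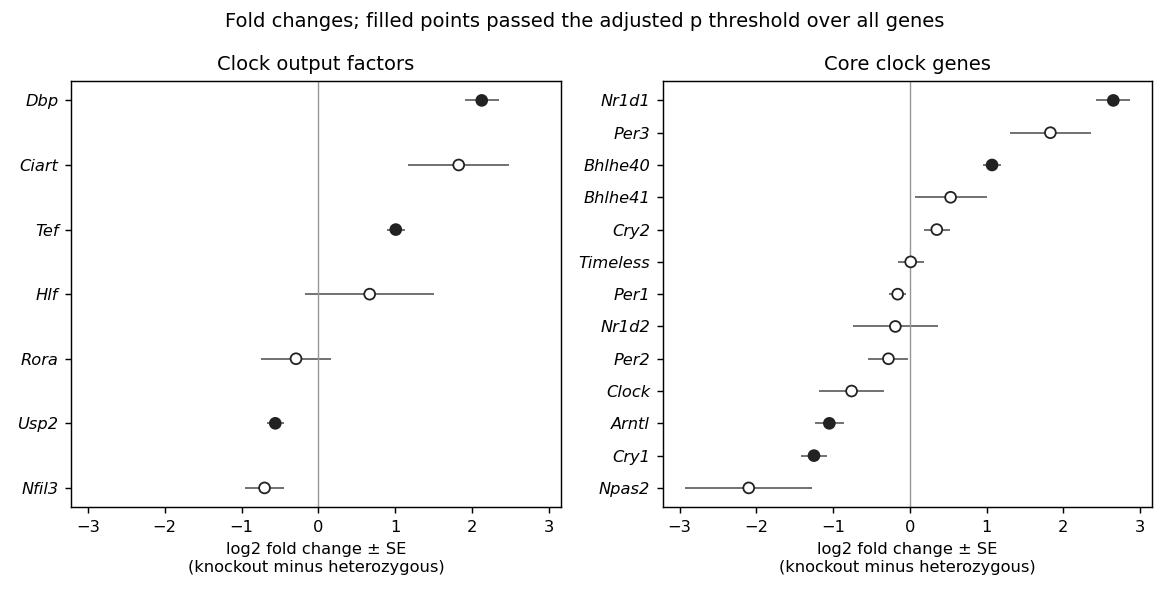
Log2 fold changes (knockout minus heterozygous) with SE for the 7 clock output factors (left) and 13 of the 14 tested core clock genes (right); filled points passed the adjusted p threshold over all genes. Nr1d1 and Dbp are the highest points, and Npas2, Cry1 and Arntl the lowest of those shown.

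Known PAR-bZIP targets are mostly enzymes and receptors of liver metabolism. Of 14 tested, none rose and 6 fell (edgeR), with a median log2 fold change of -0.89. These 42.9% stood beside 16.4% of all genes called, with 10.0% of all genes called lower. At an unadjusted p under 0.05 (edgeR), 0 were higher and 8 lower. The share of all genes at that cut was not counted, so nothing is read from that split. DESeq2 gave 0 and 8 and limma-voom 0 and 6 at their adjusted p. Ppara, the fatty acid sensor, changed by -2.25 ± 0.33 (edgeR adjusted p = 0.0135), the deacetylase Aadac by -2.30 ± 0.40 (0.0185) and the cytochrome Cyp2b10 by -2.86 ± 0.60 (0.029). By contrast Por, the reductase that feeds electrons to cytochromes P450, had means of 216 ± 6.81 and 237 ± 15.4 CPM (SD, n = 3 and 2), a difference that did not pass. Several of these targets are hepatocyte genes, and summed hepatocyte markers were 28120 to 33179 CPM in the heterozygous but 5916 and 13425 CPM in knockout replicates 2 and 3. Aadac followed the same order of libraries within the knockout group, with 7.65 and 19.8 CPM. Other targets on the list, Por among them (248 and 226 CPM), ran the other way. In heterozygous replicates 1 to 3 Aadac was at 74.2, 68.3 and 60.4 CPM, while the marker sums were 30130, 33179 and 28120 CPM. The part of hepatocyte RNA in these changes was not tested. No target passed without heterozygous replicate 1 or 2, where 463 of 15972 and 335 of 16022 genes passed. Without heterozygous replicate 3, 3 targets passed, beside 2540 of 16137 genes.

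Genes that modify clock proteins gave 1 higher and 5 lower of 15 (median -0.42), or 40% called beside 16.4% of all genes. Nampt, the NAD salvage enzyme under clock control, changed by -1.38 ± 0.23 (edgeR adjusted p = 0.0172), the AMP kinase subunit Prkaa1 by -1.14 ± 0.22 and the phosphatase subunit Ppp1cb by -1.10 ± 0.22. Csnk1d, a kinase that marks PER proteins for decay, was at 0.38 ± 0.11 and did not pass. With offsets for length and GC content 2 passed, beside 1509 of 16389 genes. Without heterozygous replicate 1 or 2 none did, beside 463 and 335 over all genes tested.

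Of 16 transcripts that cycle in many tissues 15 were tested, and 2 rose and 4 fell (median -0.33). The share called was 40%, beside 16.4% of all genes. The chaperone Hspa5 (-1.39 ± 0.12) and Fkbp5, a co-chaperone induced by glucocorticoids (-1.51 ± 0.17), fell, Tspan4 rose by 0.66 ± 0.11, and Tsc22d3 (0.24 ± 0.13) did not pass. With offsets for length and GC content 3 passed, beside 1509 of 16389 genes. Without heterozygous replicate 1 or 2, 2 did, beside 463 and 335 over all genes tested. Genes induced by glucocorticoids, hormones that reset clocks in many tissues, gave 2 higher and 4 lower of 12 (median -0.70). Here 50% were called, beside 16.4% of all genes. Dusp1 rose by 1.77 ± 0.17 and Cebpd by 0.60 ± 0.12, whereas Fkbp5 fell. Of these 12, 2 passed without heterozygous replicate 1 or 2, beside the same 463 and 335 over all genes.

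Of 15 other bZIP factors 6 rose, 1 fell and 8 were not called (median 0.55), so that 46.7% were called beside 16.4% of all genes. Atf3, a stress-induced factor, rose by 1.22 ± 0.17 and Cebpb, a C/EBP factor, by 1.00 ± 0.17. Cebpg fell by 0.87 on the log2 scale. None passed without heterozygous replicate 1 or 2, beside 463 and 335 over all genes tested. With offsets for length and GC content 3 did, beside 1509 of 16389 genes.

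Stimulus-induced genes moved beside Dbp and Tef. Of 16, 12 rose and 0 fell (edgeR, median 1.22), so that 75% were called beside 16.4% of all genes. At an unadjusted p under 0.05 in edgeR, 13 were higher and 1 lower, again with no share of all genes counted at that cut. At adjusted p, DESeq2 gave 12 and 1 and limma-voom 12 and 0. Junb changed by 1.30 ± 0.09, Nr4a1 by 2.39 ± 0.19 and Ier2 by 1.17 ± 0.10. Their summed level was 1029 to 1069 CPM in heterozygous and 3044 and 2467 CPM in knockout replicates 2 and 3, an order that Tef followed in the knockout libraries and Dbp did not. It was not tested what part this has in the Dbp and Tef values. The count was 7 without heterozygous replicate 1 and 6 without heterozygous replicate 2, beside 463 and 335 over all genes tested.

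**Figure D5:**
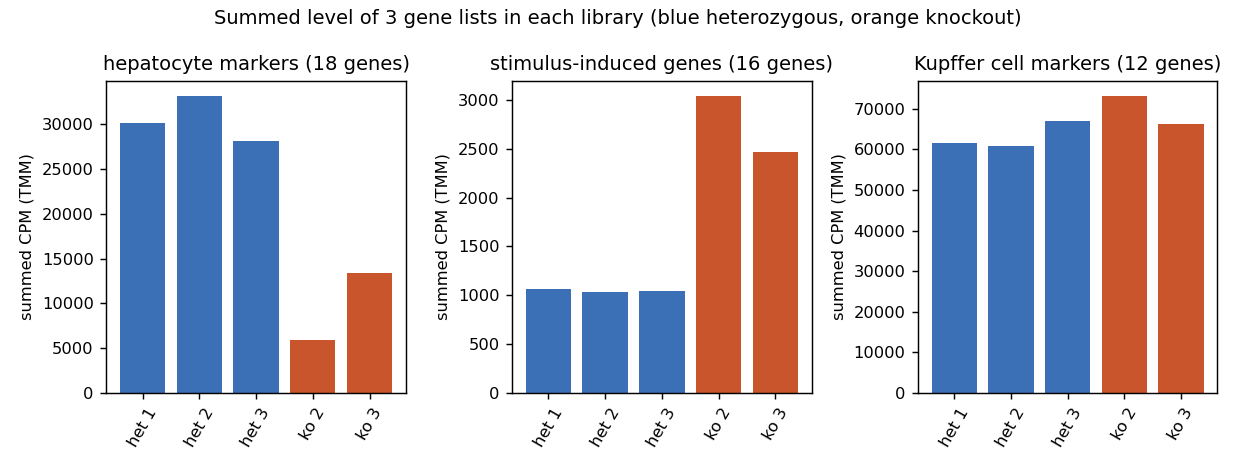
Summed CPM in each library (axes from 0) of hepatocyte markers, stimulus-induced genes and Kupffer cell markers, heterozygous in blue and knockout in orange. Hepatocyte marker sums are lower and stimulus-induced sums higher in both knockout libraries, while Kupffer cell marker sums lie between 60881 and 73211 CPM.

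The genes with profiles most like each member were taken by the root mean square difference of centred log2 CPM over the 5 libraries, among 8812 genes of at least 5 CPM. Such likeness over 5 libraries reflects mainly the genotype difference and is a description. Nearest to Dbp were Calml4 (0.168), Nr4a1 (0.208) and Fos (0.225), of which the last 2 are immediate-early genes. Tef was nearest to the linker histone gene H1f0 (0.047), Zfp36 (0.065) and the cell cycle inhibitor gene Cdkn2d (0.066). Usp2 had the closest matches, Rnf115 (0.023), Acat1 (0.024) and Cpt1a (0.035), of which the last 2 encode mitochondrial enzymes. Nfil3 was nearest to Tango6 (0.081), Oxnad1 (0.101) and Vipr1 (0.109), and Rora to Golgb1 (0.082), Helb (0.098) and Zfp217 (0.104). For Ciart (Apoc4, Cyp2b13 and Hamp2, 0.415 to 0.424) and Hlf (Ccl7, Lonrf1 and Socs1, 0.271 to 0.487) no gene came close. Among the members themselves, Nfil3 and Usp2 were the most alike (0.259) and Dbp and Nfil3 the least (1.437).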

How the data were processed

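RNA sequencing counts of 5 libraries were analysed. The authors deposited raw read counts per gene; the submitters' processing notes name HTSeq 0.5.4, DESeq 1.18.0, R 3.1.2 and the build mm9. Amplification was by SMART-seq V4, per the labels' protocols. No source used here gives the aligner, annotation or strand setting. Lines that name no gene (47% to 48.6% of all counts in heterozygous, 40% and 42.8% in knockout libraries) were left out. Knockout was compared with heterozygous with the quasi-likelihood test of edgeR 4.0.16 (R 4.3.3; low counts removed by filterByExpr, TMM scaling, no covariate); a gene passed at an adjusted p under 0.05 over 16436 genes. The SE is the log2 fold change over the root of F. With 3 against 2 libraries no exact test of 1 value can go below 0.1. Alternatives used DESeq2 1.42.0, limma 3.58.1 (voom), other scalings, filters and covariates, and fits without 1 library. Transcript and exon lengths came from GENCODE M21, matched by gene ID for 46488 of 46983 genes, a later build than the one noted. RefSeq promoters (GRCm38.p6) matched all 7 members; in 6 of 8 windows the bases after the start lie in a GENCODE transcript. Code was tested on simulated data. Members and lists were chosen with earlier results of these data known. Named were all members and core clock genes, in each pathway list the 3 smallest p and 1 other by level, up to 2 markers per cell type by level, and per member the 3 genes with the most similar profile; a few genes of these lists are counted but not reported here. Gata3, Il7r, Sphk2, Marco, Cd163, C1qb, C1qc, Apoa1, Apoa2, Ttr, Hamp and S100a9 were added after their values were seen.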

Additional observations from a re-analysis of the deposited data

How the results depend on the processing

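Scaling by RLE, upper quartile or library size, the filters on low counts, robust fitting and limma-voom left 3 members passing, as did DESeq2 and offsets for length and GC content. The count over all genes was 4615 with DESeq2, 1509 with those offsets and 1267 with a minimum absolute log2 fold change of 1, and 335 to 2540 as each library was left out. With 1 library left out, 2 to 3 members and 2 to 6 core clock genes passed, and DESeq2 called 7 core clock genes. Replicate numbers 2 and 3 occur in both genotypes. Deviations of same-numbered libraries had correlations of -0.03 and -0.06, and those of crossed pairs 0.03 and 0.06. The 2 knockout libraries deviate from their mean by equal and opposite amounts, so the crossed values only mirror the others. Whether a shared number means shared handling was not tested. With a replicate block, on 1 residual degree of freedom, 1 gene passed (Id3), with 0 members and 0 core clock genes. At an unadjusted p under 0.05 (edgeR), 6 of 14 core clock genes passed in that fit, beside 3497 of 16436 genes. With the hepatocyte covariate, on 2, again 1 passed (Id3), with 0 members and 0 core clock genes. Unadjusted, 3 core clock genes passed there, beside 2124 of 16436 genes. Signs turned in genes that were not called, and the cause was not tested: with length and GC offsets for Rora (0.46), Clock (0.05) and Nr1d2 (0.50); with the hepatocyte covariate for Rora (1.11), Npas2 (1.40), Per1 (0.16) and Bhlhe41 (-0.02); with the block for Nr1d2 (0.43) and Timeless (-0.03). Leaving out libraries gave -0.83 to 0.11 for Rora, -0.64 to 0.01 for Per2, -0.56 to 0.32 for Nr1d2 and -0.07 to 0.16 for Timeless. Depth limits Hlf, Ciart and Rora, which had 8 to 185 counts per library.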
